A study of Mus musculus with 3 samples.

Results

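The genes described here encode enzymes that add chemical marks to histones and DNA or take them off: histone deacetylases, sirtuins, lysine acetyltransferases, lysine and arginine methyltransferases, histone demethylases, DNA methyltransferases and TET dioxygenases. They were taken by symbol among genes typed as protein-coding. The symbols were Kdm, Kmt, Hdac, Sirt, Kat, Prmt and Setd followed by a number, Dnmt1, Dnmt3a, Dnmt3b, Dnmt3l, Tet1 to Tet3, Ezh1 and Ezh2. The symbol rule uses no measured value, but it was chosen with earlier results of these data known. The table of 46095 genes held 74 of them, and the 70 with a summed count of 20 or more over the libraries were compared, beside 15534 genes of the whole table with that count. OCCM-30 is an immortalised line of mouse cementoblasts, the cells that deposit cementum on the tooth root. The cells, labelled wild type, were harvested before induction (day 0), after 7 days and after 14 days in cementogenic medium, and total RNA was sequenced from 1 library per time point. With 1 library per time point the comparisons have no replicate check, so every value below describes these libraries and carries counting error alone. The induced libraries were also longer in culture, so induction and time in culture cannot be told apart.

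Acetyl groups loosen the hold of histones on DNA and are written by acetyltransferases and erased by deacetylases and sirtuins, while methyl groups on lysine or arginine mark chromatin as active or silent according to the residue. DNA methyltransferases copy or place methyl groups on cytosine, and TET enzymes oxidise those groups as a step towards their removal. In bone-forming cells, class IIa deacetylases are known to restrain the transcription factor Runx2, and Ezh2, the catalytic subunit of Polycomb repressive complex 2 (PRC2), is known to keep bone genes silent until differentiation.

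Values are deposited read counts, CPM (counts scaled to a common library size) with TMM factors, which allow for differences in library composition, or the authors' FPKM, which divide by gene length and were used wherever different genes were compared in level. A gene was said to have risen or fallen where the ratio of scaled counts was at least 2, its exact 95% counting interval excluded 1 and the higher library had 1 CPM or more. The brackets after a fold hold that interval. That ratio has no pseudocount, whereas log2 ratios add 0.5 CPM (or 0.5 FPKM) to both libraries, which shrinks those of low genes. A low gene can thus pass the rule with a log2 ratio inside the 2-fold line. The libraries held 13224690, 14034518 and 14439666 counts on day 0, 7 and 14, of which the enzymes took 0.834%, 0.828% and 0.816%. The summed CPM of 10 markers of cementoblasts and osteoblasts was 15456, 21118 and 23101 on day 0, 7 and 14, most of it from the collagen genes Col1a1 (8914, 10205 and 11558 CPM) and Col1a2 (6029, 9630 and 10058 CPM). Of the other markers, Runx2 had 244.7 CPM on day 0, Spp1 201.9, Alpl 53.1 and Sp7 9.70. The rest were low on day 0, with Ibsp and Bglap at 0.422, Bglap2 at 0.843 and Dmp1 at 1.90 CPM. Against day 0, 5 of the 10 were higher and 1 lower on day 7, and 6 higher and 1 lower on day 14; the lower one was Dmp1 both times. Summed over their lists, markers of macrophages (4 genes), endothelium (3), epithelium (4) and cartilage (2) stayed at or below 6.33 CPM in each library, and Adgre1, Cdh5, Kdr, Epcam, Krt5 and Acan had no count. The 6 proliferation genes listed summed to 2874, 3479 and 3307 CPM, and 0 of 6 passed the rule in any comparison.

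Against day 0, the day 7 library had 4 of the 70 enzymes higher and 8 lower by the 2-fold rule. The higher ones were Kdm7a, Kdm4b, Tet2 and Ezh1, which are demethylases of histones, an oxidase of methylated DNA and a methyltransferase of PRC2. The lower ones were the arginine methyltransferases Prmt1, Prmt2 and Prmt3, the deacetylases Hdac1 and Sirt1, the acetyltransferase Kat2a, the methyltransferase Setd6 and the demethylase-family gene Kdm8. Those are 5.71% higher and 11.4% lower, beside 11.5% higher and 10.6% lower of all 15534 genes, so the enzymes had a smaller share higher and a similar share lower. Over protein-coding genes alone the shares were 9.78% higher and 10.9% lower. The median log2 ratio was -0.06 over the enzymes and 0.01 over all genes. With libraries scaled by their totals, 3 enzymes were higher and 10 lower, beside 1473 higher and 2085 lower of all 15534 genes. The median of all genes then shifted to -0.14. With TMM scaling and a summed count of 100 or more, all genes gave 1210 higher and 1092 lower, and the enzymes kept 4 and 8. Part of the all-gene share thus came from genes of lower count. Less RNA of a gene per cell and fewer cells that express it cannot be told apart in these bulk libraries.

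The promoters of the gene with the largest rise, of the TET gene that rose and of the arginine methyltransferases that fell are shown because these genes carry the results that follow. Each window lies upstream of the start site that RefSeq gives on GRCm38.p6 (the assembly behind mm10) and is written 5′ to 3′ along the strand of the gene, trimmed to leave out listed exons. Capitals mark matches on either strand to GGGCGG, the GC box; to CCAAT, a motif bound by NF-Y; to TATAAA, the TATA box; to ACGTG, the core of hypoxia response elements; and to TGACGTCA, the cyclic AMP response element. The palindromic glucocorticoid response element was searched too and is not in these windows.
Kdm7a, chr6:39206790-39206939, minus strand: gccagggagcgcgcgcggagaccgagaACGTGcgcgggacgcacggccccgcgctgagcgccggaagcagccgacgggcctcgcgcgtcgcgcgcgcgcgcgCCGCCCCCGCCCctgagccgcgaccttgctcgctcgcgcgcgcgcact
Tet2, chr3:133544391-133544540, minus strand: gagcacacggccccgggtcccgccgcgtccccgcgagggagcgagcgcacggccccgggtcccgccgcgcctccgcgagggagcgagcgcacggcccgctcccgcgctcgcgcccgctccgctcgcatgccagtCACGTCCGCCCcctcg
Prmt1, chr7:44986569-44986670, minus strand: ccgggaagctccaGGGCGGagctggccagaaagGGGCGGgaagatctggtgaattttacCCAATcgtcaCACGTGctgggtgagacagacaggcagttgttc
Prmt2, chr10:76237866-76238015, minus strand: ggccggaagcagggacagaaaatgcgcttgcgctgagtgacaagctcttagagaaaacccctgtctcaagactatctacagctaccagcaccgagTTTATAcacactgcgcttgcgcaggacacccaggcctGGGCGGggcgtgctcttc
Prmt3, chr7:49778196-49778345, plus strand: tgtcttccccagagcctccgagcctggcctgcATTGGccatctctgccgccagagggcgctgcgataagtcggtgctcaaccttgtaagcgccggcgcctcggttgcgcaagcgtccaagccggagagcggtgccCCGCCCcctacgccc

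The Kdm7a window held 2 GC boxes side by side and 1 ACGTG, in a sequence of 82.0% G and C. The table places the 5′ end of Tet2 away from the RefSeq start, and the window follows RefSeq. The Tet2 window, at 82.7% G and C, held 1 ACGTG directly followed by 1 GC box. GC content was 58.8%, 57.3% and 68.7% in the windows of Prmt1, Prmt2 and Prmt3. The Prmt1 window, which spans 250 to 149 bases upstream of the start, held 2 GC boxes, 1 CCAAT and a CACGTG, which matches ACGTG on both strands. The windows of Prmt2 and Prmt3 each held 1 GC box. TATAAA was found in the Prmt2 window and CCAAT in that of Prmt3. Over the full 250 bases upstream, Prmt1 had 4 GC boxes and 3 CCAAT, Kdm7a 3 GC boxes, Prmt2 1 CCAAT and Prmt3 2 ACGTG. In the 250 bases upstream of the start, a GC box was present in 35 of the 62 enzyme promoters listed by RefSeq (56.5%), against 60.0% of the 9375 listed promoters of genes with a summed count of 20 or more and 43.8% of all 16310. CCAAT was present in 27 of the 62 (43.5%), against 37.4% of those 9375 and 36.4% of all, and ACGTG in 16 (25.8%), against 21.7% and 17.9%. TATAAA was in 4 enzyme promoters (6.45%), against 6.03% of the 9375 and 12.2% of all, and TGACGTCA in 1 (1.61%), against 2.76% and 2.04%. Unlike the 9375, the 62 were not limited by count. The 4 with TATAAA include Hdac9 and Kdm5d, which were not compared. The palindromic glucocorticoid response element was in 0 enzyme promoters and in 1 of all 16310. These matches are letters in a window and were not tested for binding.

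**Figure D1:**
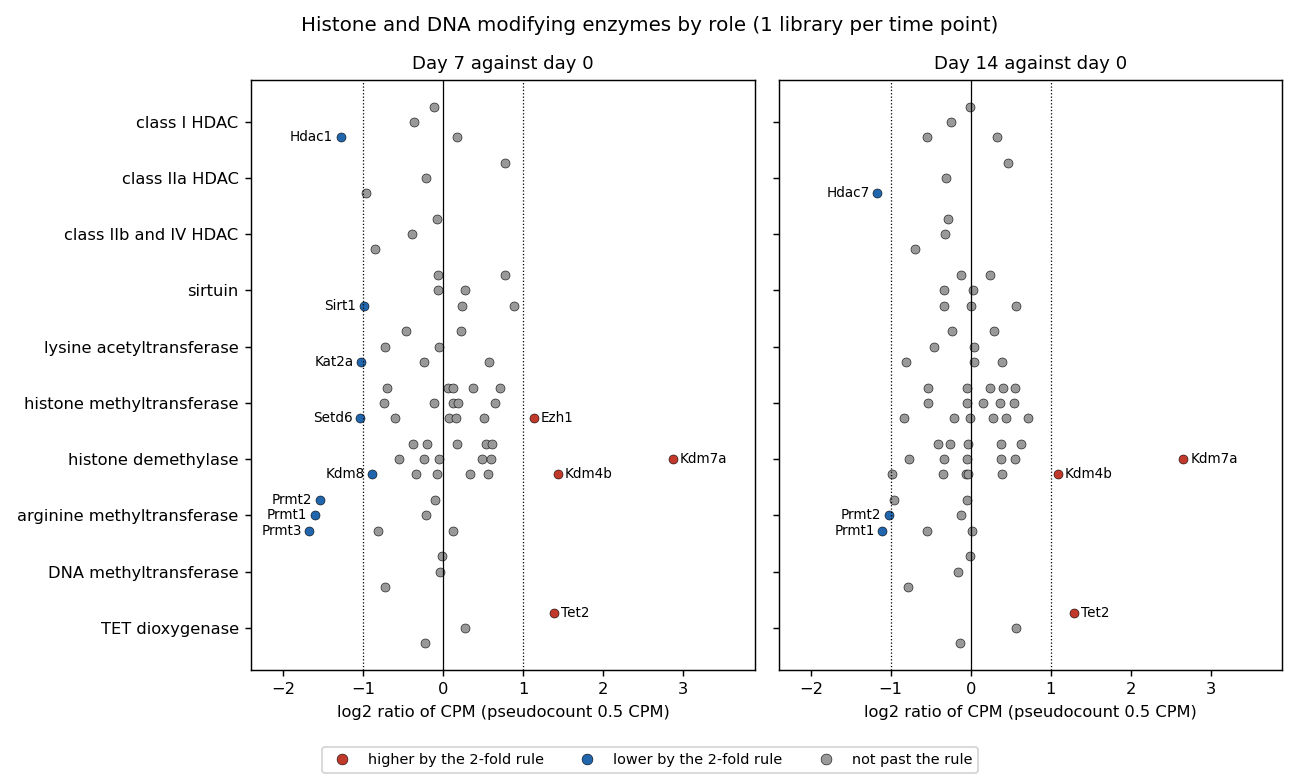
Log2 ratio of CPM (pseudocount 0.5 CPM) of the 70 compared enzymes, by role down the page, for day 7 against day 0 (left) and day 14 against day 0 (right). Each point is a gene, coloured by the 2-fold rule with dotted lines at 2-fold. The rule uses the ratio without pseudocount, so Kdm8 and Sirt1 are coloured as lower on day 7 although they lie inside the line. Kdm7a lies far to the right in both panels, and 3 arginine methyltransferases lie left of the line on day 7.

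The largest rise was that of Kdm7a, a jumonji demethylase known to remove repressive methyl groups from histone H3. Kdm7a (chr6:39136620-39206773) had 1185, 8301 and 7358 counts on day 0, 7 and 14, or 83.3, 612.3 and 529.6 CPM. Both induced libraries were far above day 0 and the day 14 library was slightly below day 7. Kdm7a was 7.35-fold higher on day 7 (6.92 to 7.82) and 6.36-fold higher on day 14 (5.98 to 6.77) than on day 0. It was the enzyme that passed a 4-fold threshold against day 0 at either time. By length, its FPKM was 9.38, 61.9 and 53.3, and its mean was the highest of the demethylases. An annotated gene on the opposite strand, 4930599N23Rik, overlaps 2.85% of its exonic bases. Whether counting used strand is not stated in the labels, so reads in that overlap cannot be assigned to either gene.

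The other demethylase that rose was Kdm4b, which removes a silencing mark from histone H3. Kdm4b (chr17:56326033-56403769) had 66.4, 179.9 and 141.7 CPM on day 0, 7 and 14. It was 2.71-fold higher on day 7 (2.51 to 2.92) and 2.13-fold higher on day 14 (1.97 to 2.31) than on day 0, and the day 14 call is lost when libraries are scaled by their totals (log2 ratio 0.93). Its paralogue Kdm4a had 124.7, 85.0 and 97.6 CPM and did not pass the rule, nor did Kdm4c at 35.4, 49.8 and 46.2 CPM. By FPKM, Kdm4b took 24.9%, 51.3% and 44.1% of the KDM4 family on day 0, 7 and 14, while Kdm4a took 57.3%, 29.7% and 37.2%. Kdm4a was thus the most abundant member of the family by length on day 0, and Kdm4b on day 7 and 14. Kdm4d was near the limit of detection, with 11, 15 and 2 counts.

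Of the 17 demethylases compared, 2 rose and 1 fell on day 7, and 2 rose and 0 fell on day 14 against day 0, with medians of 0.17 and -0.03 on the log2 scale. The gene that fell was Kdm8, with 70, 33 and 37 counts; it was 2.02-fold lower on day 7 than on day 0 (1.32 to 3.16), a call that is lost with TMM factors from protein-coding genes alone (log2 ratio -0.87). On day 14 Kdm8 was not a call. With libraries scaled by their totals its ratio without pseudocount passes 2-fold (log2 ratio -0.92), which makes it a lower call. So does its ratio in the authors' FPKM, which are scaled in that way (-0.71). Kdm6a and Kdm6b, which erase the silencing mark that PRC2 writes, had 82.9, 120.0 and 108.3 CPM and 129.5, 197.2 and 170.4 CPM, short of 2-fold in both comparisons. Kdm6b kept a similar share of their summed FPKM, at 57.4%, 58.6% and 57.6%. Within the KDM5 family, which removes methyl groups from active promoters, Kdm5c took 61.5%, 65.7% and 59.8%, Kdm5b 34.3%, 28.2% and 33.9%, and Kdm5a 4.28%, 6.02% and 6.36%. Kdm5d, on chromosome Y, had no count in any library, and neither did Uty, a listed partner on the same chromosome. Kdm1a, the flavin-dependent demethylase also called LSD1, had 141.8, 119.8 and 106.9 CPM.

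Among the TET enzymes, Tet2 rose and the others did not pass the rule. Tet2 (chr3:133463677-133545196) had 1200, 3001 and 2880 counts on day 0, 7 and 14, which are 84.3, 221.4 and 207.3 CPM. The induced libraries were close to each other and above day 0: Tet2 was 2.62-fold higher on day 7 (2.45 to 2.81) and 2.46-fold higher on day 14 (2.30 to 2.63). Tet1 had 33.7, 40.9 and 50.0 CPM and Tet3 262.9, 225.2 and 239.5 CPM. On day 0 Tet3 held 65.2% of the family's FPKM and Tet2 27.8%. Tet2 held 53.1% and 49.4% on day 7 and 14, against 40.7% and 43.1% for Tet3, so their order by length differed between the induced libraries and day 0. The summed FPKM of the TET genes was 35.4, 43.6 and 43.7.

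With TMM scaling, 0 of the 3 DNA methyltransferases compared passed the rule in the 3 comparisons. Dnmt1, which copies methylation after replication, had 359.8 CPM on day 0, 357.4 on day 7 and 321.2 on day 14, and held 82.7%, 83.6% and 81.9% of the family's FPKM. Dnmt3a, a de novo enzyme, had 122.9, 119.9 and 122.1 CPM. Dnmt3b, the other de novo enzyme, was low, with 114, 63 and 62 counts. Its log2 ratios were -0.73 on day 7 and -0.78 on day 14 against day 0. With libraries scaled by their totals, its day 14 ratio without pseudocount passes 2-fold and is a call, at a log2 ratio of -0.93. The authors' FPKM, which are scaled in that way, make it a call too, at -0.70. Dnmt3l, a cofactor without catalytic activity, had 0, 0 and 1 counts.

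**Figure D2:**
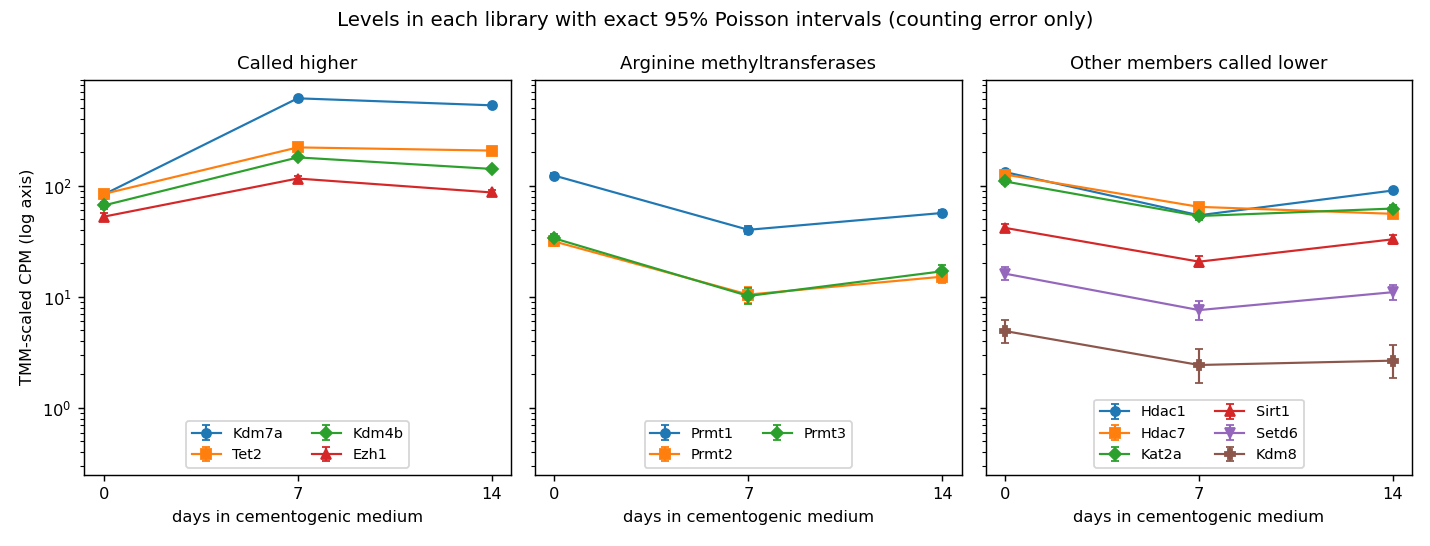
CPM (log axis) of the 13 enzymes past the 2-fold rule against day 0, on day 0, 7 and 14. Each line joins the 3 libraries of a gene, and bars are exact 95% Poisson intervals, which cover counting error only. Kdm7a reaches 612 CPM on day 7, and Prmt1, Prmt2 and Prmt3 have their lowest values on that day.

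The arginine methyltransferases, grouped by the symbol Prmt alone, had the lowest median log2 ratio of the 10 role groups. It was -0.82 for day 7 and -0.54 for day 14 against day 0. Of 7 compared, 0 rose and 3 fell on day 7, and 0 rose and 2 fell on day 14. Prmt1, which places most asymmetric arginine dimethylation in mammalian cells, had 1756, 544 and 790 counts or 123.4, 40.1 and 56.9 CPM on day 0, 7 and 14. It was lowest on day 7 and remained below day 0 on day 14: 3.08-fold lower on day 7 (2.79 to 3.39) and 2.17-fold lower on day 14 (1.99 to 2.36). Prmt2, a weaker enzyme and nuclear receptor coactivator, had 31.5, 10.5 and 15.2 CPM. It was 3.01-fold lower on day 7 (2.48 to 3.66) and 2.07-fold lower on day 14 (1.76 to 2.45) than on day 0. Prmt3, a cytosolic enzyme that methylates a ribosomal protein, had 33.6, 10.2 and 17.0 CPM, which put it 3.30-fold lower on day 7 than on day 0 (2.73 to 4.02). On day 14 its log2 ratio to day 0 was -0.96, inside the 2-fold line, and -1.12 with libraries scaled by their totals, which makes it a call. Prmt5, the main source of symmetric dimethylation, had 56.1, 31.6 and 38.4 CPM and did not pass the rule. Prmt6, Prmt7 and Prmt9 had log2 ratios between -0.22 and 0.12 on day 7 against day 0, and that of Prmt9 is -0.03 with libraries scaled by their totals. Prmt8 had no count in any library. Carm1, an arginine methyltransferase that the symbol rule did not take, had 982, 809 and 863 counts. Its log2 ratios were -0.21 on day 7 and -0.15 on day 14 against day 0, and the medians above leave it out.

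By symbol alone (Kmt, Setd and Ezh), 16 compared genes were grouped as histone lysine methyltransferases. Of these, 1 rose and 1 fell on day 7 and 0 passed the rule on day 14 against day 0. Setd4, with 124, 70 and 65 counts, becomes a lower call on day 14 with libraries scaled by their totals (log2 ratio -0.98). It is also a call with the authors' FPKM, which are scaled in that way (-0.80, past 2-fold without pseudocount). Ezh1 and Ezh2 are alternative catalytic subunits of PRC2. Ezh1 (chr11:101191115-101226463) had 52.6, 116.1 and 87.0 CPM on day 0, 7 and 14 and was 2.21-fold higher on day 7 than on day 0 (2.02 to 2.41); with libraries scaled by their totals its log2 ratio was 0.98 and the call is lost. Ezh2 had 99.9, 164.3 and 145.5 CPM, log2 ratios of 0.71 on day 7 and 0.54 on day 14. Ezh2 held most of their FPKM in each library, and the share of Ezh1 was 25.4% on day 0 (23.8 to 27.2), 31.4% on day 7 (30.01 to 32.8) and 27.9% on day 14 (26.5 to 29.4). Setd6, known for methylating the NF-kappaB subunit RelA, had 230, 103 and 153 counts and was 2.13-fold lower on day 7 than on day 0 (1.68 to 2.71). Setd7, which can place a methyl group on histone H3, had 297.6, 177.8 and 256.7 CPM and log2 ratios of -0.74 and -0.21 against day 0. The large enzymes of the KMT2 family, which mark promoters and enhancers as active, had log2 ratios between 0.06 and 0.37 on day 7 for Kmt2a, Kmt2b, Kmt2c and Kmt2d, and with libraries scaled by their totals those of Kmt2a (-0.03) and Kmt2d (-0.10) turn negative. Kmt2d held 44.6%, 41.9% and 41.8% of the FPKM of those 4 genes. Setd5 had the highest mean FPKM of the methyltransferases, with 48.3, 61.8 and 55.5 FPKM. Setd1a shares 52.3% of its exonic bases with other annotated genes, so its 134.8, 124.7 and 131.0 CPM are uncertain.

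Among the zinc-dependent deacetylases, Hdac1 fell on day 7 and Hdac7 on day 14. Hdac1 and Hdac2 are paired class I enzymes of the Sin3, NuRD and CoREST co-repressors. Hdac1 had 132.8, 54.2 and 90.6 CPM on day 0, 7 and 14 and was 2.45-fold lower on day 7 than on day 0 (2.25 to 2.67). The table places Hdac1 on a scaffold outside the chromosomes, so reads may be split with another copy and its values are uncertain. Leaving out genes off the chromosomes removes Hdac1 itself and so gives 7 enzymes lower on day 7, beside 1613 lower of all genes. Hdac2 had 137.4, 127.2 and 136.8 CPM, so the share of Hdac1 in their summed FPKM was 49.5%, 30.2% and 40.2%. Hdac3 and Hdac8, the other class I genes, had log2 ratios of -0.37 and 0.18 on day 7.

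The class IIa genes differed in direction. Hdac7 had 1795, 875 and 776 counts, or 126.2, 64.5 and 55.9 CPM, and was 2.26-fold lower on day 14 than on day 0 (2.08 to 2.46). On day 7 its log2 ratio was -0.96, and -1.12 with libraries scaled by their totals, where it is a call. Hdac5 had 109.0, 185.9 and 150.5 CPM and log2 ratios of 0.77 and 0.46, short of the rule. Hdac5 held 38.3% of the class FPKM on day 0 (36.8 to 39.8), 63.3% on day 7 (61.9 to 64.7) and 61.0% on day 14 (59.4 to 62.5). Hdac7 held 44.2%, 21.9% and 22.5%, and Hdac4 17.6%, 14.6% and 16.3%. Hdac9 had 0, 8 and 10 counts and was not compared. Hdac6, a cytoplasmic tubulin deacetylase, had 126.0, 69.8 and 77.4 CPM, a log2 ratio of -0.85 on day 7 that becomes a call with libraries scaled by their totals (-1.003).

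**Figure D3:**
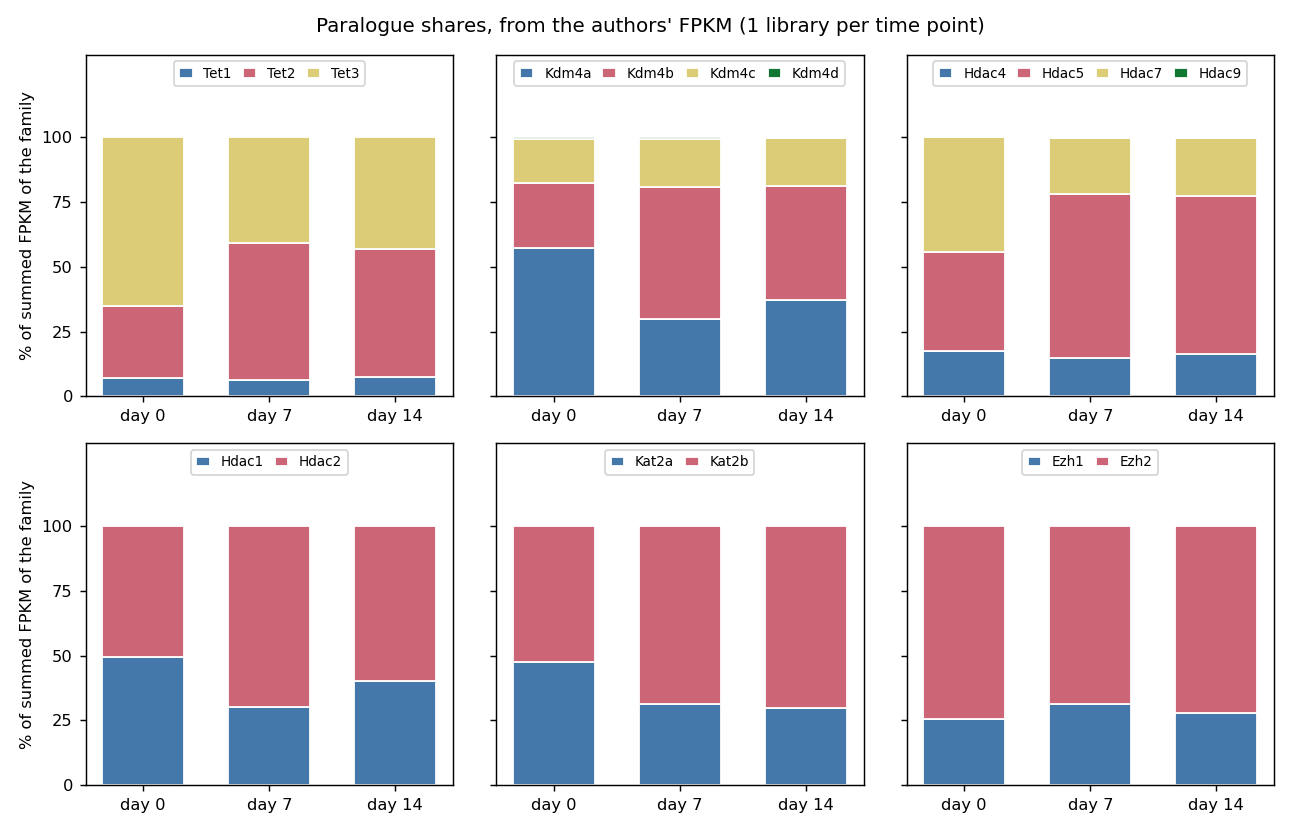
Share of the summed FPKM of a family held by each member (%, stacked to 100) on day 0, 7 and 14. The 6 panels are the TET, KDM4, class IIa, Hdac1 and Hdac2, Kat2a and Kat2b, and Ezh1 and Ezh2 families. Tet2, Kdm4b, Hdac5, Hdac2 and Kat2b hold larger shares on day 7 and 14 than on day 0.

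Sirtuins, deacetylases and related enzymes that use NAD, gave 0 higher and 1 lower of 7 on day 7, and 0 and 0 on day 14. Sirt1, the nuclear enzyme studied most, had 594, 281 and 458 counts or 41.7, 20.7 and 33.0 CPM, lowest on day 7. It was 2.01-fold lower on day 7 than on day 0 (1.74 to 2.33), at the edge of the rule, and with TMM factors from protein-coding genes its log2 ratio was -0.97 and the call is lost. Sirt2, mainly cytoplasmic, had 56.4, 104.6 and 84.0 CPM and log2 ratios of 0.88 and 0.57. By FPKM, Sirt2 held 33.5%, 47.6% and 44.3% of the family and Sirt1 14.0%, 5.34% and 9.85%. Sirt3, Sirt4 and Sirt5, which act in mitochondria, had FPKM between 4.29 and 6.82 for Sirt3, 8.24 and 10.1 for Sirt4 and 3.21 and 4.60 for Sirt5 over the libraries.

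Of 7 lysine acetyltransferases, 0 rose and 1 fell on day 7, and 0 passed the rule on day 14. Kat2a, the GCN5 enzyme of the SAGA coactivator, had 1555, 724 and 866 counts or 109.3, 53.4 and 62.3 CPM. It was 2.05-fold lower on day 7 than on day 0 (1.87 to 2.24), and its log2 ratio on day 14 was -0.81. Its paralogue Kat2b, also called PCAF, had 169.3, 163.2 and 207.1 CPM and held 52.6%, 68.6% and 70.4% of their FPKM. Kat6a held 77.2%, 80.0% and 80.4% of the FPKM of the Kat6a and Kat6b pair. Kat8, which acetylates histone H4, had 157, 226 and 204 counts.

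Against day 0, the day 14 library had 3 of the 70 enzymes higher, Kdm4b, Kdm7a and Tet2, and 3 lower, Hdac7, Prmt1 and Prmt2. These are 4.29% in each direction, beside 8.92% higher and 7.47% lower of all genes, so a smaller share of the enzymes than of all genes passed the rule. Over protein-coding genes alone the shares were 7.81% and 7.56%. The median log2 ratio was -0.04 over the enzymes and 0.00 over all genes. With libraries scaled by their totals, 2 were higher and 7 lower, beside 1139 higher and 1505 lower of all 15534 genes. The share of enzymes lower is then no longer smaller than that of all genes. The median of all genes was -0.15 with that scaling. With TMM scaling and a summed count of 100 or more, calls over all genes dropped to 950 higher and 673 lower. The enzymes kept 3 and 3. Part of the all-gene share thus came from genes of lower count, and the enzyme counts are small. This comparison and that of day 7 share the day 0 library. Of the 12 enzymes past the rule on day 7, the interval of 4 reached below 2, and of the 6 on day 14, that of 3.

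Between the induced libraries, day 14 against day 7, 0 enzymes were higher and 1 was lower (1.43%), beside 2.57% higher and 2.10% lower of all genes (2.11% and 1.22% of protein-coding genes). The lower one was Kdm4d, which had 2 counts on day 14 against 15 on day 7, a ratio of 7.69 with an interval of 1.79 to 69.3. At a 1.5-fold threshold, Hdac1, Prmt3 and Sirt1 were higher (4.29%, beside 5.83% of all genes) and Kdm4d lower (1.43%, beside 5.09%). Over the 3 comparisons, 14 of the 70 enzymes passed the 2-fold rule at least once and 56 did not. The share of all genes that passed at least once was not computed. On day 7 against day 0 alone, 11.5% of all genes were higher and 10.6% lower.

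**Figure D4:**
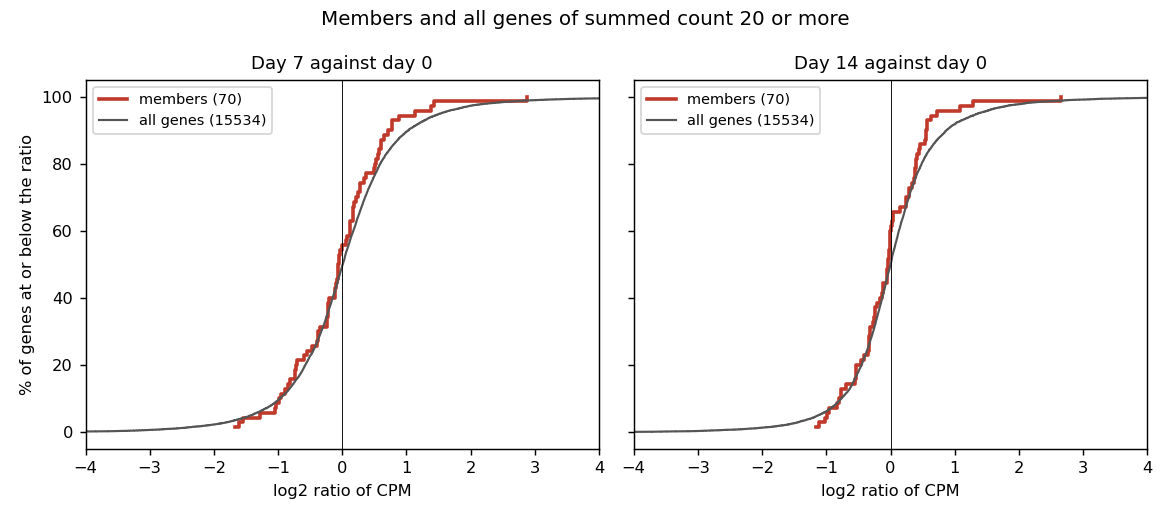
Cumulative share (%) of genes by log2 ratio of CPM for the 70 compared enzymes and for all 15534 compared genes, in day 7 against day 0 and day 14 against day 0. The enzyme curve lies above that of all genes over most ratios between 0 and 2, and the enzymes' medians are -0.06 and -0.04.

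The 1.5-fold threshold gave a fuller count on day 7: 12 enzymes higher (17.1%) and 16 lower (22.9%), beside 18.9% and 18.9% of all genes. The higher ones added Ezh2, Hdac5, Kat8, Kdm3a, Kdm6b, Setd3, Sirt2 and Sirt3 to the 4 above, and the lower ones added Dnmt3b, Hdac6, Hdac7, Kat5, Kmt5a, Prmt5, Setd4 and Setd7. On day 14 it gave 5 higher (7.14%) and 9 lower (12.9%), beside 14.9% and 14.0% of all genes.

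Other chromatin enzymes and partners were listed beside them: 81 genes, of which 77 were in the table and 72 could be compared. On day 7 against day 0, 6 were higher (8.33%) and 3 lower (4.17%), and on day 14 against day 0, 4 were higher (5.56%) and 1 lower (1.39%), to be read beside the shares of all genes given above. Jarid2, an accessory subunit of PRC2, had 868, 2684 and 2398 counts and was 3.25-fold higher on day 7 (3.005 to 3.51) and 2.83-fold higher on day 14 (2.62 to 3.06) than on day 0. The core subunits Eed and Suz12 had log2 ratios of 0.44 and 0.29 on day 7 and did not pass. Smyd5, a methyltransferase, had 668, 201 and 265 counts and was 3.17-fold lower on day 7 (2.70 to 3.73) and 2.46-fold lower on day 14 (2.13 to 2.85). Gadd45a, a stress-response gene linked to DNA demethylation, had 292, 720 and 624 counts and was 2.59-fold higher on day 7 (2.26 to 2.97) and 2.19-fold higher on day 14 (1.90 to 2.52). Cbx7, Uhrf2, Mbd2 and Gadd45b were the other partners higher on day 7, and Bmi1 and Chd3 the others lower. Ehmt2, listed on a scaffold outside the chromosomes with 4, 12 and 21 counts, was 5.38-fold higher on day 14 (1.81 to 21.5), and its values are uncertain for that reason.

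The 4 enzymes that were not compared were Prmt8 and Kdm5d at 0 counts, Dnmt3l at 1 and Hdac9 at 18 in total. Just above the minimum stood Kdm4d with a summed count of 28 and Kdm8 with 140. A count of 0 in a library allows up to 3 counts, or 0.211, 0.221 and 0.216 CPM on day 0, 7 and 14.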

How the data were processed

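Deposited whole-number counts and FPKM values of 46095 genes, made by the authors, were used for 3 libraries; the miRNA tables were not used. HISAT2, TopHat, Cufflinks, HTSeq and DESeq are named with mm10 in the submitters' processing notes, without versions or roles. The deposited FPKM equalled the count over gene length and library total for every detected enzyme, within a relative tolerance of 0.001. Counts were scaled with edgeR 4.0.16 TMM factors in R 4.3.3 (1.08, 0.966 and 0.962 for day 0, 7 and 14). Ratios carry exact Clopper-Pearson 95% intervals conditional on the summed count, which cover counting error only; log2 ratios use a pseudocount of 0.5 CPM. No replicated test was possible. Enzymes past the rule in any comparison, the extremes by level and ratio of each role, every member of 12 paralogue families, enzymes under 20 counts and up to 4 partners were named; other genes named were chosen after their values were seen. The members and lists were chosen with earlier results of these data known. The size rule was checked on counts simulated with counting error alone and with changes larger than its threshold. That cannot show how it behaves with variation between cultures or near the threshold. Alternatives used DESeq2 1.42.0 factors, other minimums, pseudocounts and thresholds. Computation used Python 3.11.15, numpy 2.4.6, pandas 2.3.3 and scipy 1.17.1. Promoters came from RefSeq (GRCm38.p6) and overlaps from GENCODE.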

Additional observations from a re-analysis of the deposited data

How the results depend on the processing

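No count, median or gene past the 2-fold rule changed direction under an alternative. Values of single genes were followed for compared enzymes named for a call, an extreme of their role or a paralogue family, not for all 70. Among those, 20 values of 10 genes short of the rule changed direction, all with a main log2 ratio of 0.15 or less in size. With libraries scaled by their totals, the median log2 ratio of all genes shifted to -0.14 on day 7 and -0.15 on day 14 against day 0, and that of the enzymes to -0.21 and -0.20; with the authors' FPKM the enzymes' medians were -0.21 and -0.19. The deposited FPKM are themselves scaled by library totals, so these alternatives are not separate checks. Both gave 7 enzymes lower on day 14 and left the other counts of calls within 1.5 times. A 1.5-fold threshold gave 12 higher and 16 lower on day 7, 5 higher and 9 lower on day 14, and 3 higher for day 14 against day 7. A 4-fold threshold gave 1 higher and 0 lower on day 7, beside 713 higher and 609 lower of all 15534 genes. On day 14 it gave 1 higher and 0 lower, beside 590 and 365 of all genes. For day 14 against day 7, a summed count of 100 or more, or 5 CPM in the higher library, gave 0 lower, since Kdm4d is below both. Of the values of single genes followed in this way, 1246 stayed on their side of the rule and, where short of it, within the counting interval. Another 104 moved beyond that interval, 32 newly passed and 22 no longer passed. Leaving out genes off the chromosomes was chosen after seeing the data and gave 7 lower on day 7, because it removes Hdac1. All genes then gave 1613 lower. No paired analysis was possible because each time point has 1 library. Precision is limited by counting for low genes such as Kdm4d, and variation between cultures was not measured.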

Other observations

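3 enzymes of the same families are listed under older symbols, which the symbol rule did not take, and were matched through RefSeq synonyms after the values were seen. Suv420h1, now Kmt5b, which methylates histone H4, had 1327, 544 and 954 counts on day 0, 7 and 14. It was 2.32-fold lower on day 7 than on day 0 (2.10 to 2.57) and 1.36-fold lower on day 14 (1.25 to 1.48), which is short of the rule. Its paralogue Suv420h2, now Kmt5c, had 473, 752 and 601 counts and was 1.67-fold higher on day 7 (1.49 to 1.88). The FPKM of Suv420h1 was 13.1, 5.05 and 8.61, and that of Suv420h2 10.01, 14.99 and 11.6, so their order by length differed between day 0 and both induced libraries. Csrp2bp, now Kat14, a subunit of an acetyltransferase complex, had 959, 535 and 575 counts and was 1.71-fold lower on day 7 (1.54 to 1.90).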
